A study of Mus musculus with 28 samples.

Results

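The comparison set out here is the late change of the tissue inside a polymer implant in tumor-free mice, day 21 against day 14. Its members are the 11 samples whose column names carry the healthy day 21 label (3 samples) or the healthy day 14 label (8 samples), out of 28 samples in the series, and every assay of the panel was used. The series measured inflammation transcripts by quantitative PCR in microporous polycaprolactone (PCL) scaffolds, which fill with host cells after implantation and which the labels call a synthetic niche. Female BALB/c mice carried the scaffolds and either received 4T1 mammary carcinoma cells or served as time-matched healthy controls, with 1 sample per mouse. Days are counted from tumor inoculation, so for healthy mice they mark the matched day of biopsy and not the age of the implant, which the labels do not give. The groups used are healthy day 21 (n = 3) and healthy day 14 (n = 8), with tumor-bearing day 21 (n = 3), tumor-bearing day 14 (n = 8) and the day 7 groups (n = 3 each) entering the same model. The labels carry the line name 4T1-luc2-tdTomato for healthy mice as well, so groups were taken from the label of the mouse's condition.

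A porous polymer implant draws the foreign body response: neutrophils and monocytes enter first, macrophages gather at the polymer and can fuse into giant cells, and fibroblasts and vessels fill the pores. Lymphocytes and dendritic cells join in smaller numbers, guided by chemokines, small secreted proteins that bind receptors on the arriving cells. The panel reads secreted cytokines, chemokines, their receptors and markers of these cells in the RNA of the whole scaffold.

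All values are log2 relative quantities, the log2 of the deposited ratio of an assay to 5 reference genes, so a difference of 1 is a doubling and an assay's level cannot be set against another's. The labels describe the tissue as an immune, stromal and epithelial infiltrate. The integrin gene Itgam, the lipopolysaccharide co-receptor gene Cd14, the mannose receptor gene Mrc1, the Fc receptor chain gene Fcer1g, and the matrix genes Fn1 and Spp1 had a value in all 11 samples. The keratin gene Krt8 had one in 8 of 11. Of the 8 day 14 samples, 2 stood apart: replicate 13 had a value in 475 of 648 assays and replicate 14 in 535, against 567 to 586 in the other 6 and 581 to 584 in the 3 day 21 samples. The missing reactions were not only late ones, since the 89 assays that replicate 13 alone lacked had a median quantification cycle (Cq) of 21.5 elsewhere. The mean Cq of the reference genes was earlier at day 21 (18.2 ± 0.13, SD, n = 3) than at day 14 (18.6 ± 0.22, SD, n = 8; exact permutation test, two-sided p = 0.0242). The median raw Cq of a sample was earlier at day 21 too (21.5 ± 0.13 against 21.9 ± 0.14; exact permutation test, two-sided p = 0.0121, the smallest the design allows). Day 21 samples came from panels C, E and F and day 14 samples from panels A, B, D, E and F, with 4 day 14 samples on panel D. Only panels E and F held both days, 1 sample of each, so most of the comparison lies between panels.

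In the main fit, implants of healthy mice had more transcript of 2 antimicrobial and fungal-recognition lectins at day 21 than at day 14. The rest of the panel did not pass the test, and both calls were lost in several alternative fits given below. In the limma model 2 of 578 assays tested passed an adjusted p of 0.05 (0.346%), Reg3g and Clec7a, both higher at day 21, and 0 were lower. At an unadjusted p under 0.05 there were 92 assays (15.9%), 53 higher (9.17%) and 39 lower (6.75%). With Cq scaled to the housekeeping genes of the panel in place of the 5 reference genes this split was 67 higher and 30 lower, and without day 14 replicates 13 and 14 it was 63 higher and 68 lower. The groups did not overlap in 35 assays (6.06%), 23 with every day 21 value above every day 14 value (3.98%) and 12 with every day 21 value below (2.08%). The median difference of all assays was -0.02, and the median standard error of a difference was 0.31. The leading assays by p-value were taken among those with a value in all 11 samples, so F3 is not among them. Clec7a was added on the higher side. Of the 13 leading higher assays, 12 had values on both shared panels, and all 12 were higher at day 21 on panel E and on panel F. Of the 12 leading lower ones, 8 were lower on panel E and 12 on panel F. The samples of panels E and F helped to choose these assays, and 10 of the 13 higher ones had no overlap between days. These counts are therefore no separate check of the panels.

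**Figure D1:**
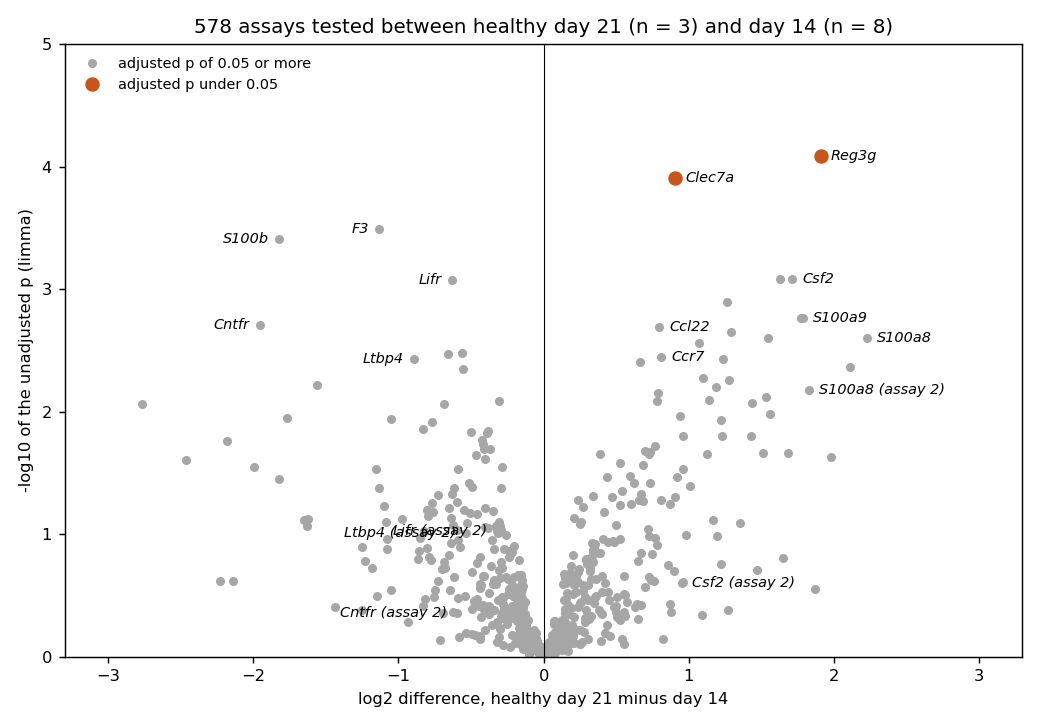
Each point is 1 assay: the horizontal axis is the log2 difference, healthy day 21 minus day 14, and the vertical axis is minus log10 of the unadjusted limma p. The 2 filled orange points, Reg3g and Clec7a, are the assays with an adjusted p under 0.05, and F3 and S100b (adjusted p = 0.0561 each) lead the lower side; assay 2 marks a second assay of the same gene.

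Reg3g encodes a secreted C-type lectin that kills Gram-positive bacteria and is best known from gut and airway epithelium. Its log2 relative quantity was -0.67, -0.59 and -0.94 in the 3 day 21 samples, while the 8 day 14 samples ran from -3.58 over a median of -2.79 to -1.49. All 3 day 21 values lay above every day 14 value. Reg3g rose by 1.91 ± 0.40 on the log2 scale (SE), 3.76-fold (95% interval 2.12 to 6.66, adjusted p = 0.0358). On the panels that held both days it was higher by 1.64 (panel E) and 1.47 (panel F). In a bulk sample a larger share of the cells that make a transcript and more of it per cell cannot be told apart. The call was lost with the panel as a fixed block (1.62, adjusted p = 0.167), without the 4 day 14 samples of panel D (1.63, adjusted p = 0.168), with only the 11 samples in the fit (1.90, adjusted p = 0.141) and without any 1 of 5 samples (day 14 replicates 7 and 11 and each day 21 replicate, 1.73 to 2.01, adjusted p = 0.0799 to 0.16). Over all alternatives the difference lay between 1.55 and 2.21, with adjusted p from 0.00355 to 0.688. The promoter window of Reg3g is shown because this was the change with the smallest p-value on the panel; it is read from RefSeq on GRCm38.p6 at chr6:78468825-78469124, minus strand, 250 bases before to 50 after the gene's start, with motif matches in capitals.
Reg3g: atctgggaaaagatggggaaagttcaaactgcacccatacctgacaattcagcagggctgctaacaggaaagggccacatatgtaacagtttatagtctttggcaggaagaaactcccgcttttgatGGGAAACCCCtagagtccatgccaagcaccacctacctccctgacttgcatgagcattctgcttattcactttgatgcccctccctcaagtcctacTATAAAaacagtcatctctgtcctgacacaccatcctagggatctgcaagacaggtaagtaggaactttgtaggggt
The capitals mark a kappaB consensus match, which matches on both strands and begins 123 bases before the start, and a TATA box (TATAAA) that begins 27 bases before it. Of 32851 promoter windows of this length in the table, 8.46% held the kappaB consensus on either strand and 8.32% held TATAAA on the gene's strand.

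Clec7a encodes dectin-1, the receptor for fungal beta-glucan on macrophages, dendritic cells and neutrophils, and it belongs to the list of alternative macrophage activation genes. The day 21 samples had 1.37, 1.59 and 1.34, and the 6 day 14 samples with a value ran from 0.16 over a median of 0.41 to 1.09, again without overlap. Clec7a rose by 0.91 ± 0.19, 1.87-fold (95% interval 1.42 to 2.48, adjusted p = 0.0358). Day 14 replicates 13 and 14 gave no value, so no pair on a shared panel was available for Clec7a. Its call was lost under the same changes of block and samples as that of Reg3g, with differences of 0.94 with the panel as a fixed block (adjusted p = 0.183), 0.82 without panel D (adjusted p = 0.169) and 0.81 to 0.95 without any 1 of the same 5 samples. Over its alternatives the difference ran from 0.81 to 8.23, the highest where missing reactions took the largest Cq, and the adjusted p from 0.00355 to 0.481. Of the 2 promoter windows listed for Clec7a the first is printed, at chr6:129472730-129473029, minus strand (RefSeq, GRCm38.p6), to set beside that of Reg3g.
Clec7a: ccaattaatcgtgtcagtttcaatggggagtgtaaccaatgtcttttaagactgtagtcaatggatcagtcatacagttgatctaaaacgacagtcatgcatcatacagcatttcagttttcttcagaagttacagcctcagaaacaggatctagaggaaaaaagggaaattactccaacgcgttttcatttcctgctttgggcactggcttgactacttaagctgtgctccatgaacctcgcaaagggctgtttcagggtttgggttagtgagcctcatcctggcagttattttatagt
No capitals appear, because neither the kappaB consensus, nor the STAT-type motif TTCNNNGAA on either strand, nor TATAAA on the gene's strand occurs in these letters. TTCNNNGAA, which is its own reverse complement, occurs in 8.30% of all windows and is not in the Reg3g window either.

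Transcripts of neutrophils were the list with the largest median difference among lists with at least 5 assays tested, although none of its assays passed the adjusted test. Of 11 assays tested for 10 genes, 7 were higher at an unadjusted p under 0.05 and 0 were lower, with a list median of 1.07 against -0.02 over all assays. The counts were 7 and 0 also without day 14 replicates 13 and 14, and 6 and 0 without panel D. Over all 578 assays 9.17% were higher and 6.75% lower at that level, the shares to set beside the list counts here and below. S100a9 encodes a calcium-binding protein that fills the neutrophil cytoplasm and forms calprotectin with the S100a8 product. S100a9 had -0.29, -0.51 and 0.64 at day 21, and -3.24 to -0.72 with a median of -2.01 at day 14. No day 14 value reached the day 21 values, and the difference was 1.79 ± 0.51 (adjusted p = 0.0965). S100a8 gave -0.63, -0.34 and 0.23 at day 21 against -4.22 to -1.15 (median -2.85, n = 7) at day 14, a difference of 2.23 ± 0.66 (adjusted p = 0.0965). A second S100a8 assay, with a value in all 11 samples, differed by 1.83 ± 0.61 (adjusted p = 0.132), likewise without overlap. On the shared panels E and F the differences were 0.43 and 2.73 for S100a9, and 0.80 and 0.82 for the second S100a8 assay. The first S100a8 assay differed by 0.52 on panel E and had no pair on panel F. All but the panel F pair of S100a9 lay under the pooled values.

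The neutrophil list holds 3 receptor genes, none past the adjusted test. Il8rb (now Cxcr2), the receptor for the CXC chemokines that draw neutrophils, had -3.83, -3.95 and -3.37 at day 21 and -5.66 to -4.04 (median -4.99, n = 7) at day 14, a difference of 1.26 ± 0.34 without overlap (adjusted p = 0.0925). Il8ra (now Cxcr1), a related chemokine receptor, differed by 0.73 ± 0.30 (adjusted p = 0.203). Fpr1, the receptor for bacterial formyl peptides, differed by 1.19 ± 0.40 (adjusted p = 0.131), with 1 day 14 value above the lowest of day 21. Outside the list, the leukotriene B4 receptor gene Ltb4r1 differed by 0.52 ± 0.31. Pglyrp1, a peptidoglycan recognition protein of granules, differed by 1.07. Genes of other granule proteins were less uniform: Camp differed by 0.87, Ela2 (now Elane) by 0.65, Prtn3 by 0.45 and the lactoferrin gene Ltf by -0.30, none at an unadjusted p under 0.05. Over the 4 neutrophil assays with a value in all 11 samples, the summed relative quantity on a linear scale was 2.36 to 3.69 at day 21 and 0.473 to 1.80 at day 14, and no day 14 sample reached the lowest day 21 sample. Such a sum weights each assay by its own level. Its members were the second S100a8 assay, S100a9, Il8ra and Fpr1. At day 21 the S100a8 and S100a9 assays had the highest levels, and neither overlapped between days on its own. The sum is therefore not separate from them.

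Several cytokines that draw or sustain neutrophils had higher values at day 21. Csf2 encodes GM-CSF, a growth factor of granulocytes, macrophages and dendritic cells. Csf2 had -6.69, -6.72 and -6.93 at day 21 and -9.54 to -7.56 (median -8.36) at day 14, a difference of 1.71 ± 0.45 without overlap (adjusted p = 0.0702). Its second assay gave 0.95 ± 0.81, with 1 day 21 value missing and a day 14 range of -11.54 to -7.70. Cxcl5, a ligand of Cxcr2, had -0.23, -0.39 and 0.45 at day 21 and -2.21 to -0.12 at day 14 (1.28 ± 0.42, adjusted p = 0.124). Cxcl3 differed by 0.96 ± 0.41 without overlap (adjusted p = 0.231). Csf3 differed by 0.01 ± 0.74, and by 0.67 ± 0.75 in its second assay. Ppbp differed by -1.44 ± 1.65, the only tested assay of the list below 0. Of the 10 assays tested for neutrophil-attracting chemokines and growth factors, 4 were higher and 0 lower at an unadjusted p under 0.05, with a list median of 0.82. Several of the neutrophil markers given above also had higher values at day 21. Whether they varied between mice with the chemokines of this list was not tested, nor was any part of the chemokines in the result.

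**Figure D2:**
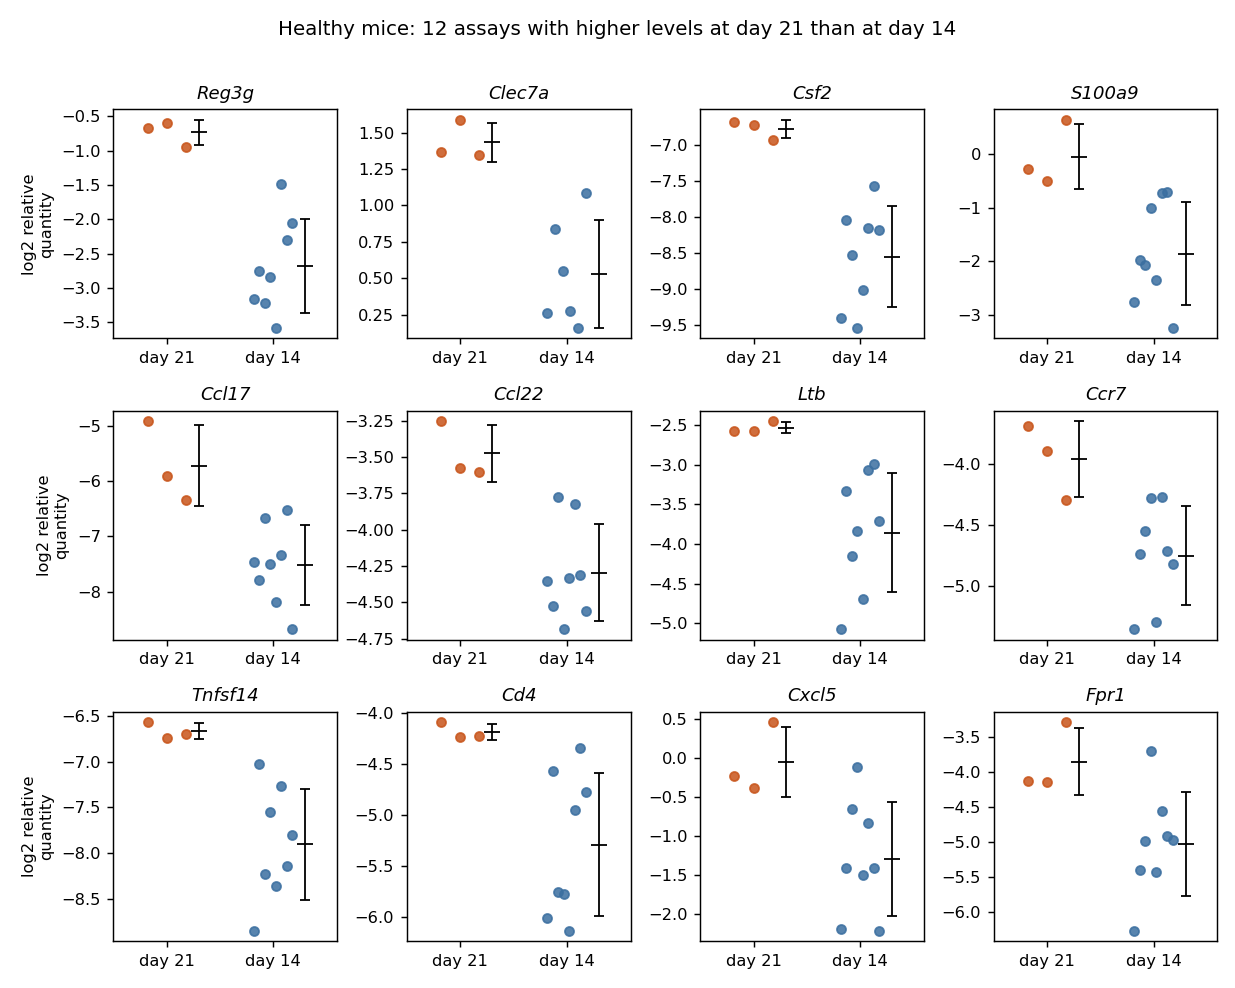
Log2 relative quantity of 12 assays by sample, healthy day 21 (orange, 3 mice) left of day 14 (blue, up to 8 mice), with the mean and SD beside the points. Reg3g and Clec7a passed the adjusted test; the other 10 did not, and in Ccr7, Cxcl5 and Fpr1 the 2 days overlap.

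Chemokines that attract T cells and dendritic cells formed the list with the most assays at an unadjusted p under 0.05, 8 higher and 0 lower of 16 tested, with a median of 0.66. The count was 4 and 0 without panel D, and 8 and 1 without day 14 replicates 13 and 14. Ccl17 and Ccl22 encode the 2 ligands of CCR4, a receptor of Th2 and regulatory T cells. Ccl17 had -4.91, -5.90 and -6.34 at day 21 against -8.68 to -6.52 (median -7.48) at day 14, a difference of 1.77 ± 0.50 (adjusted p = 0.0965). Ccl22 had -3.25, -3.57 and -3.60 at day 21 against -4.68 to -3.78 (median -4.34) at day 14, a difference of 0.80 ± 0.23 (adjusted p = 0.0965). Neither gene overlapped between the days, and on the shared panels E and F the differences were 1.61 and 2.78 for Ccl17 and 1.06 and 0.98 for Ccl22. Ccl20, the ligand of CCR6, differed by 2.11 ± 0.66 (adjusted p = 0.107) but lacked a value in 2 day 14 samples and lay late in the PCR, with a mean Cq of 27.5 at day 21 and 29.96 at day 14. Ccl19, a ligand of CCR7, differed by 1.98, Xcl1 by 1.22 and the 2 assays of Ccl5 by 0.77 and 0.78. The interferon-induced ligands of CXCR3 in the same list differed by 0.56 (Cxcl9), -0.01 (Cxcl10) and 0.25 (Cxcl11).

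Genes of dendritic cells and lymphoid tissue had higher values in part. Ccr7, the receptor that brings dendritic cells and naive T cells to lymph nodes, had -3.69, -3.90 and -4.30 at day 21 and -5.35 to -4.27 (median -4.72) at day 14, a difference of 0.81 ± 0.25 (adjusted p = 0.102) with 2 day 14 samples above the lowest day 21 sample. Of 7 dendritic cell and antigen presentation assays, 3 were higher and 0 lower at an unadjusted p under 0.05, Ccl22, Ccr7 and Xcr1. Ccl22 is counted in the chemokine and alternative activation lists too. All 7 differences were above 0, against 276 of 578 over all assays, and without panel D 6 were above 0 and 1 below. Ltb encodes lymphotoxin beta, which organises lymphoid tissue. Ltb had -2.57, -2.57 and -2.45 at day 21 against -5.08 to -3.0 (median -3.77) at day 14 (1.29 ± 0.37, adjusted p = 0.0965, no overlap). Tnfsf14, which encodes LIGHT, another ligand of the lymphotoxin beta receptor, had -6.57, -6.74 and -6.69 at day 21 against -8.85 to -7.03 at day 14 (1.24 ± 0.39, adjusted p = 0.102, no overlap). The receptor gene Ltbr itself differed by -0.77. In Ltb and Tnfsf14 the 3 day 21 mice lay close together, and the 8 day 14 mice were more widely spread.

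T cell markers were uneven. Cd4 had -4.09, -4.23 and -4.23 at day 21 and -6.14 to -4.34 (median -5.35) at day 14, a difference of 1.10 ± 0.36 without overlap (adjusted p = 0.123). On panels E and F the differences were 0.26 and 0.54, under the pooled value. Ctla4 differed by 1.51 ± 0.61 (adjusted p = 0.203). The other 4 assays of the list differed by 0.08 (Icos), 0.04 (Cd28), 0.04 (Foxp3) and 0.01 (Il7r), so the list median was 0.06.

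Several inflammatory cytokines of macrophages and dendritic cells had higher values at day 21. Il23a, the specific subunit of interleukin 23, differed by 1.54 ± 0.45 (adjusted p = 0.0965; second assay 0.86 ± 0.62). Il12b, which encodes the subunit shared by interleukins 12 and 23, had -5.99, -5.61 and -6.05 at day 21 in its second assay and -9.21 to -6.29 (n = 7) at day 14 (1.56 ± 0.56, adjusted p = 0.159), and 1.12 ± 0.46 in its first assay. Il1b differed by 1.23 ± 0.47 and Il1a by 1.14 ± 0.39, while a second Il1b assay, in which day 14 replicate 14 gave 3.21 against -1.56 for the next sample, differed by 0.27 ± 0.86. Of 15 assays of the IL-1 family and inflammasome 4 were higher and 0 lower at an unadjusted p under 0.05 (Il1a, Il1b, Il18rap at 0.79 and Il1f9 at 0.92), with a median of 0.27, and without panel D 2 were higher and 0 lower. Of 25 assays for classical inflammatory activation 6 were higher and 0 lower at an unadjusted p under 0.05 (median 0.44), but Nos2 differed by -0.42, Tnf by 0.67 and Ifng by 0.44 and 0.19, none of them at that level. For 12 assays of interferons and the interferon response the counts were 0 and 0 and the median was 0.06.

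No macrophage marker passed the test. Of 6 monocyte and macrophage marker assays 0 reached an unadjusted p under 0.05 (1 lower without day 14 replicates 13 and 14), with a median of -0.09 (0.01 with the panel as fixed block). Itgam had a difference of -0.04, Cd14 of 0.05, Cx3cr1 of 0.02 and Ccr2 of -0.14. Mrc1, the mannose receptor, had 0.88, 0.35 and 0.60 at day 21, inside the -0.18 to 1.76 of day 14, and Cd163 differed by -0.34 ± 0.42. The summed level of the 5 macrophage assays with a value in all 11 samples was 3.68 to 4.43 at day 21 and 3.59 to 5.68 at day 14. Of 13 alternative activation assays 4 were higher and 0 lower at an unadjusted p under 0.05, Clec7a, Ccl17, Ccl22 and Ccl24, while the list median was -0.04 (0.02 with the housekeeping scaling). Chi3l3, Il10, Mrc1 and Pparg of that list differed by -0.49, -0.35, -0.27 and -0.08. Spp1 (osteopontin), which macrophages in foreign body reactions make in large amounts, had 4.23, 4.01 and 4.22 at day 21, inside the 3.69 to 5.07 of day 14.

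**Figure D3:**
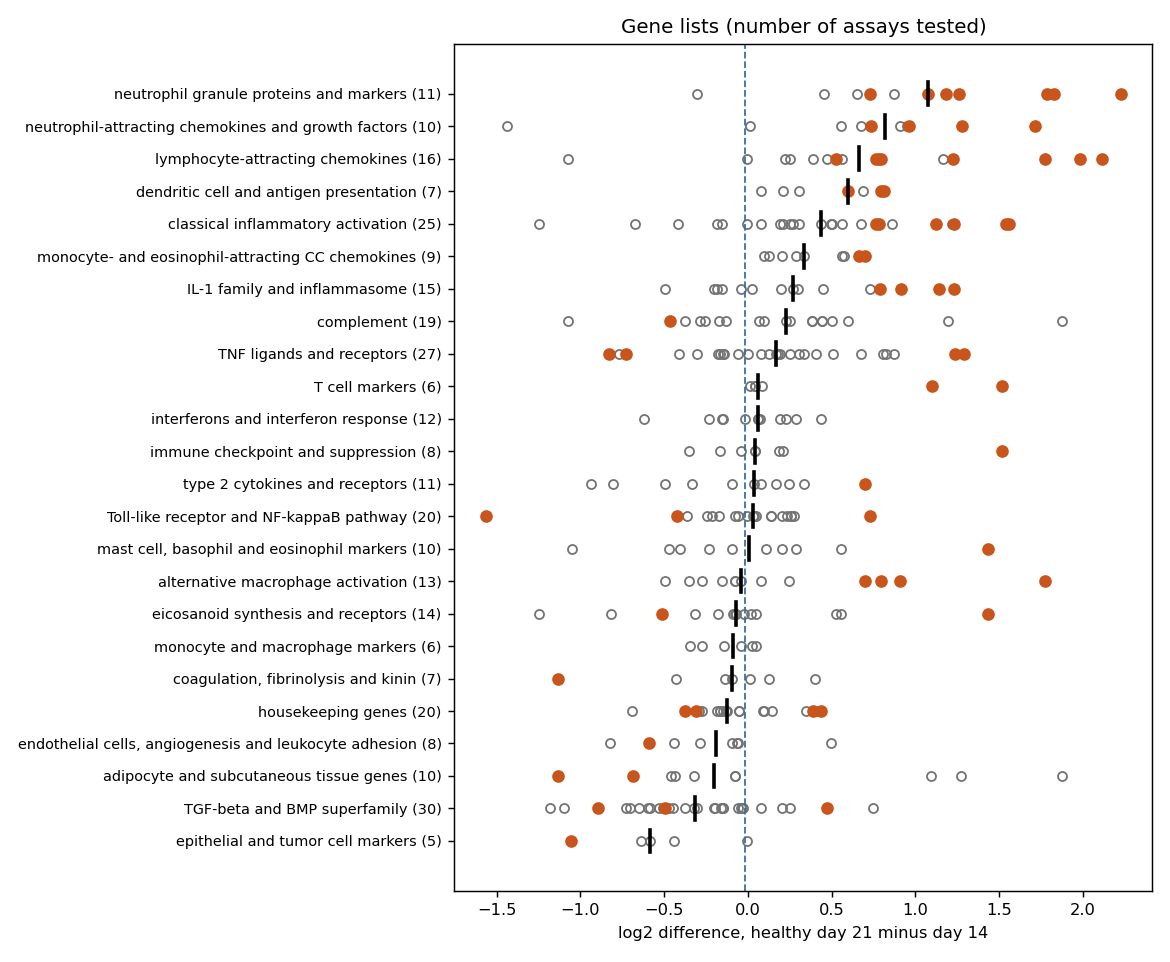
Each point is 1 assay of a gene list with at least 5 assays tested, at its log2 difference, healthy day 21 minus day 14; filled points have an unadjusted limma p under 0.05, the black bar is the list median and the dashed line the median of all 578 assays. Neutrophil transcripts (median 1.07), neutrophil-attracting factors (0.82) and lymphocyte-attracting chemokines (0.66) lie at the top, the TGF-beta and BMP superfamily (-0.31) and the epithelial and tumor cell markers (-0.58) at the bottom.

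On the lower side 0 of 578 assays passed the adjusted limma test and 39 had an unadjusted p under 0.05. F3 encodes tissue factor, the cell surface trigger of coagulation. F3 had -1.72, -1.79 and -2.25 at day 21 and -1.50 to 0.30 (median -0.92, n = 7) at day 14, a difference of -1.13 ± 0.27, 0.455-fold (95% interval 0.311 to 0.668, adjusted p = 0.0561). All 3 day 21 values lay below every day 14 value. Without panel D the difference was -1.23 and passed (adjusted p = 0.00266). Over all alternatives the difference ran from -1.25 to 2.67 and the adjusted p from 0.00266 to 0.734. The only difference above 0, 2.67, came where missing reactions took the largest Cq. The other 6 coagulation and kinin assays differed by -0.43 to 0.40, none at an unadjusted p under 0.05.

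S100b, which encodes a calcium-binding protein of glia, Schwann cells and adipocytes, had -9.17, -9.77 and -9.60 at day 21 and -9.38 to -6.69 (median -7.55) at day 14. The difference was -1.82 ± 0.44 (adjusted p = 0.0561), and 1 day 14 sample, replicate 13, lay among the day 21 samples. Without replicate 13 it was -2.12 and passed (adjusted p = 0.00553), the lowest of its alternatives, which reached 0.724. Its mean Cq was 27.7 at day 21 and 26.3 at day 14. Of 10 adipocyte and subcutaneous tissue assays 0 were higher and 2 lower at an unadjusted p under 0.05, with 7 of 10 below 0 and a median of -0.20 (0.05 with the panel as fixed block). The 2 were Lepr, the leptin receptor gene, at -6.23, -5.85 and -6.06 at day 21 and -5.65 to -4.99 at day 14 (-0.68, adjusted p = 0.136, no overlap), and Ghrl (-1.13, adjusted p = 0.284). Ghrl had a value in 4 of 8 day 14 samples and lay late in the PCR, with a mean Cq of 29.6 at day 21 and 29.0 at day 14. Adipoq, the adiponectin gene, differed by 1.27 ± 1.54, Cfd by 1.87 ± 1.70 and Fabp4 by -0.46 ± 0.47, with a summed level of 5.44 to 6.30 at day 21 and 3.50 to 40.4 at day 14, where replicate 8 was the highest. Retn, not part of that sum, differed by 1.09 ± 1.43.

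Lifr and Cntfr, receptor genes of the interleukin 6 cytokine family, were among the assays with the smallest p on the lower side. Lifr, the receptor chain that binds leukemia inhibitory factor, had -1.70, -1.50 and -1.76 at day 21 and -1.24 to -0.74 (median -1.01) at day 14, a difference of -0.63 ± 0.17 without overlap (adjusted p = 0.0702). Its second assay differed by -0.32 ± 0.18 with overlapping groups. Cntfr, the ciliary neurotrophic factor receptor, had -9.35, -8.66 and -11.03 at day 21 and -9.88 to -5.99 (median -7.57) at day 14 (-1.96 ± 0.56, adjusted p = 0.0965), with a mean Cq of 27.9 at day 21 and 26.3 at day 14. Its second assay gave -0.59 ± 0.75. For both genes the 2 assays had the same sign, and the second assay of each missed an unadjusted p of 0.05.

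**Figure D4:**
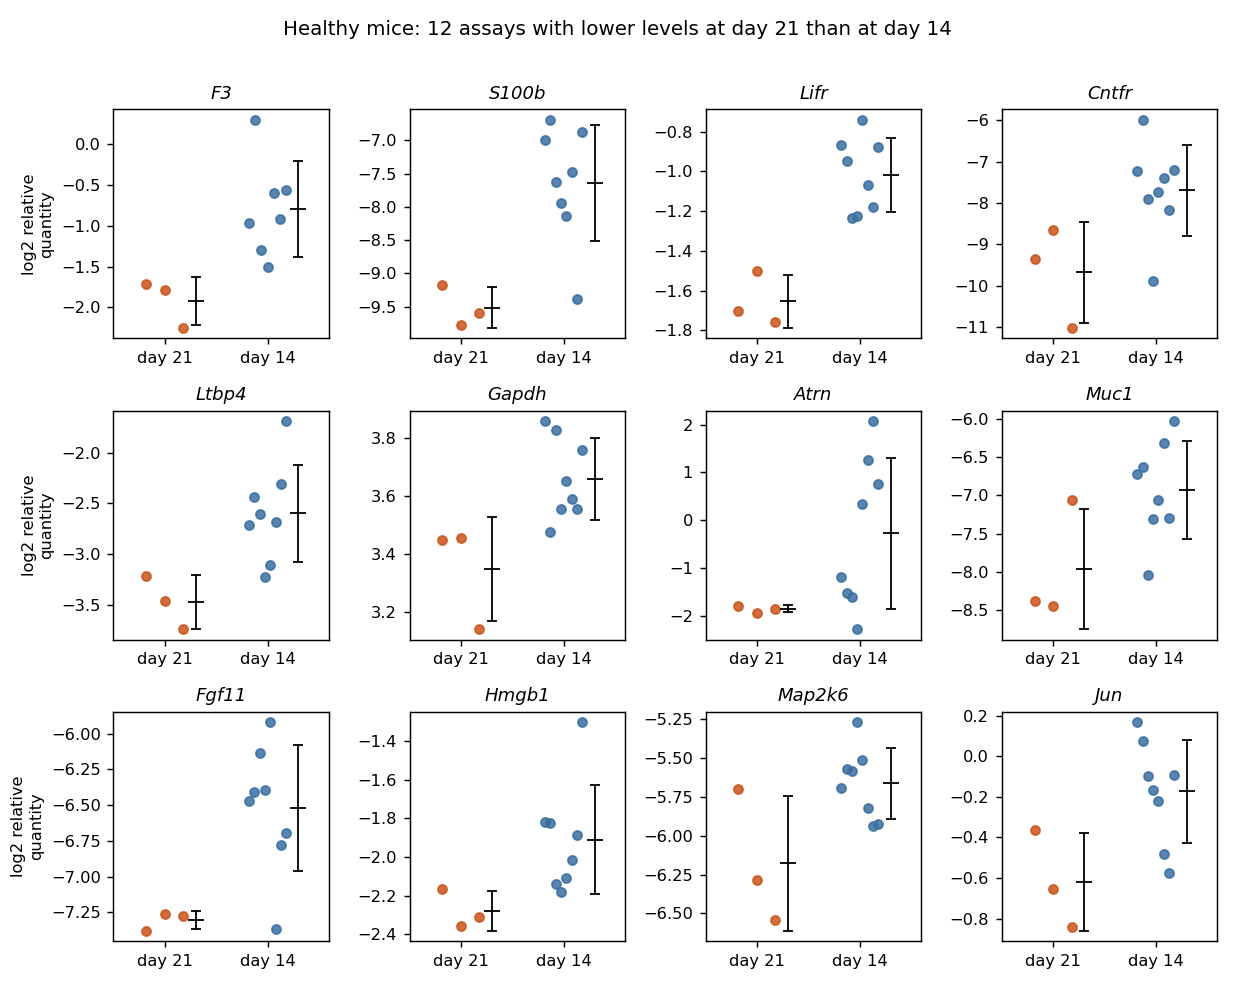
Log2 relative quantity of F3 and of the 11 assays with the smallest p among those lower at day 21 with a value in all 11 samples, healthy day 21 (orange, 3 mice) left of day 14 (blue), with the mean and SD beside the points. None passed the adjusted test; in F3, Lifr and Gapdh the days do not overlap, and in the other 9 they do.

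Members of the TGF-beta and BMP superfamily, which govern matrix deposition and tissue patterning, lay mostly below 0. Of 30 assays tested 25 were lower at day 21 as values and 5 higher, with a median of -0.31, against 302 of 578 lower over all assays. At an unadjusted p under 0.05 there were 2 lower and 1 higher. With the housekeeping scaling, or under a fixed panel block, the split was 21 lower and 9 higher. Ltbp4, which anchors latent TGF-beta in the matrix, had -3.22, -3.46 and -3.74 at day 21 and -3.22 to -1.69 (median -2.64) at day 14 (-0.90 ± 0.28, adjusted p = 0.102), and -0.53 ± 0.31 in its second assay. Tgfb2 differed by -0.49 ± 0.23 and its receptor gene Tgfbr1 by 0.47 ± 0.23 (second assay 0.20), while Tgfb1 differed by -0.04. The matrix genes of the panel, Tnc, Fn1 and Spp1, differed by -0.62, -0.22 and -0.23, with Tnc at an unadjusted p of 0.0421.

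Among epithelial genes, Muc1 had -8.39, -8.45 and -7.06 at day 21 and -8.04 to -6.03 (median -6.89) at day 14, a difference of -1.05 ± 0.38 (adjusted p = 0.16). Erbb2 and Krt8 differed by -0.64 and -0.58, and Egfr by -0.44 and -0.01 in its 2 assays (the second 0.05 with the housekeeping scaling). Further assays named by the rule were Atrn (attractin), Fgf11, Hmgb1, Map2k6 and Jun, with differences of -1.77, -0.77, -0.38, -0.50 and -0.41. Atrn was split by panel at day 14: the 4 samples of panels A, B, E and F had 0.34 to 2.08 and the 4 of panel D had -2.28 to -1.19, against -1.93 to -1.79 at day 21 on panels C, E and F. With the panel as a fixed block Atrn was the 1 assay that passed (-3.23, adjusted p = 0.000666; 0.000666 to 0.448 over its alternatives). Of the genes used as references, Gapdh, which enters every value, was lower as a value (3.45, 3.45 and 3.14 at day 21, 3.47 to 3.86 at day 14), with a difference of -0.31 ± 0.11 that did not pass the adjusted test (adjusted p = 0.136).

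In the remaining lists 0 to 2 assays per direction had an unadjusted p under 0.05. The counts were 1 higher and 0 lower of 11 type 2 assays (Ccl24), 1 and 0 of 8 checkpoint assays (Ctla4), 0 and 1 of 8 endothelial and adhesion assays (Figf), 0 and 0 of 4 giant cell assays, and 2 and 2 of 20 housekeeping assays. The only cytotoxic cell assay, Fasl, differed by 0.25, and the only B cell assay, Cr2, by 1.2 ± 0.70. Of 9 CC chemokine assays for monocytes and eosinophils 2 were higher (Ccl6 and Ccl24), and all 9 lay above 0, but without day 14 replicates 13 and 14 the split was 5 above and 4 below. Of 20 Toll-like receptor and NF-kappaB assays 1 was higher (Tlr1 in its second assay, 0.73, against -0.06 in its first, which was 0.0026 with the housekeeping scaling) and 2 lower (Irak1 and Tlr7). Irak1 rested on single samples, with -4.88 in day 21 replicate 23 against -2.07 and -2.40 in the other 2, and 0.72 in day 14 replicate 7. Of 10 mast cell, basophil and eosinophil assays Fcer1a alone was higher (1.43 ± 0.55), and Kit differed by -1.05 with day 14 replicate 13 at 3.01 and the other 7 at or below -3.95. Pla2g2d, a secreted phospholipase of dendritic cells and macrophages, differed by 1.44 ± 0.50 (adjusted p = 0.136) without overlap, and all other eicosanoid assays but 1 of 6 for Alox5 missed an unadjusted p of 0.05. Complement counts were 0 higher and 1 lower of 19 (C3ar1 in its second assay, -0.47, against 0.06 in its first), and TNF family counts were 2 (Ltb and Tnfsf14) and 2 (Tnfsf9 and Tnfrsf1a) of 27. Tnfrsf1a differed by -0.73 ± 0.35 in its first assay, the one counted, and by -0.0003 ± 0.15 in its second. Apoa1, in its second assay, gave a value in 3 of 3 day 21 samples and in 2 of 8 at day 14, at a mean Cq of 29.8 at day 21 and 30.4 at day 14.

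Set against day 7, which shares the model, day 14 had the lowest or highest mean of several of these genes. Reg3g averaged -2.27 ± 0.26 at day 7, -2.68 ± 0.69 at day 14 and -0.73 ± 0.18 at day 21 (SD, n = 3, 8 and 3). Clec7a averaged 0.53 ± 0.11, 0.53 ± 0.37 and 1.43 ± 0.13 at days 7, 14 and 21 (n = 3, 6 and 3). S100a9 averaged -0.61 ± 0.54, -1.85 ± 0.95 and -0.05 ± 0.61, so its day 21 level was near that of day 7. F3 averaged -1.62 ± 0.20, -0.79 ± 0.59 and -1.92 ± 0.29, with day 14 as the high point, and Ltbp4 averaged -3.57 ± 0.51, -2.59 ± 0.48 and -3.47 ± 0.26. In the limma model 0 of 570 assays passed between days 21 and 7 (57 at an unadjusted p under 0.05). Between days 14 and 7, 0 of 572 passed (74 at that level). Day 14 minus day 7 was -0.37 ± 0.40 for Reg3g, 0.01 ± 0.19 for Clec7a, -1.20 ± 0.51 for S100a9 and 0.97 ± 0.28 for Ltbp4. These comparisons share the day 21 or day 14 samples with the main one.

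The same days were compared in tumor-bearing mice, and the test of the difference between conditions called no assay. In the limma model 0 of 571 assays passed, 31 had an unadjusted p under 0.05 (5.43%), and the smallest adjusted p was 0.478. Reg3g differed by 1.36 ± 0.41 between day 21 and day 14 in tumor-bearing mice and by 1.91 ± 0.40 in healthy mice, a difference between conditions of -0.55 ± 0.57. Clec7a differed by 0.22 ± 0.18 in tumor-bearing mice and by 0.91 ± 0.19 in healthy mice (-0.69 ± 0.26, unadjusted p = 0.0159, adjusted p = 0.657). S100a9 differed by 1.36 ± 0.51 in tumor-bearing and 1.79 ± 0.51 in healthy mice. F3 differed by -0.16 ± 0.27 in tumor-bearing and by -1.13 ± 0.27 in healthy mice (0.97 ± 0.37, unadjusted p = 0.0154, adjusted p = 0.657). All 13 leading higher assays also lay above 0 in tumor-bearing mice, 4 of them at an unadjusted p under 0.05, and 8 of the 12 leading lower ones lay below 0, 0 of them at that level. Day 21 samples of both conditions came from panels C, E and F. Tumor-bearing day 14 samples came from panels A, B, E, F and G. The days thus lay mostly on different panels in both conditions, and a part of the panels in the shared direction was not tested. Over all 583 assays tested by limma in tumor-bearing mice, 60 had an unadjusted p under 0.05 and 0 passed. Their median difference was 0.07. Ltbp4 differed by 0.37 ± 0.28 in tumor-bearing and by -0.90 ± 0.28 in healthy mice (1.27 ± 0.39, unadjusted p = 0.00335, adjusted p = 0.478). By p-value the first 3 assays were Il19 (2.74), Bmp15 (2.80) and the second Fabp4 assay (5.05), of which Il19 had a value in 4 of 8 healthy day 14 samples and the Fabp4 assay in 2 of 3 tumor-bearing day 21 samples.

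**Figure D5:**
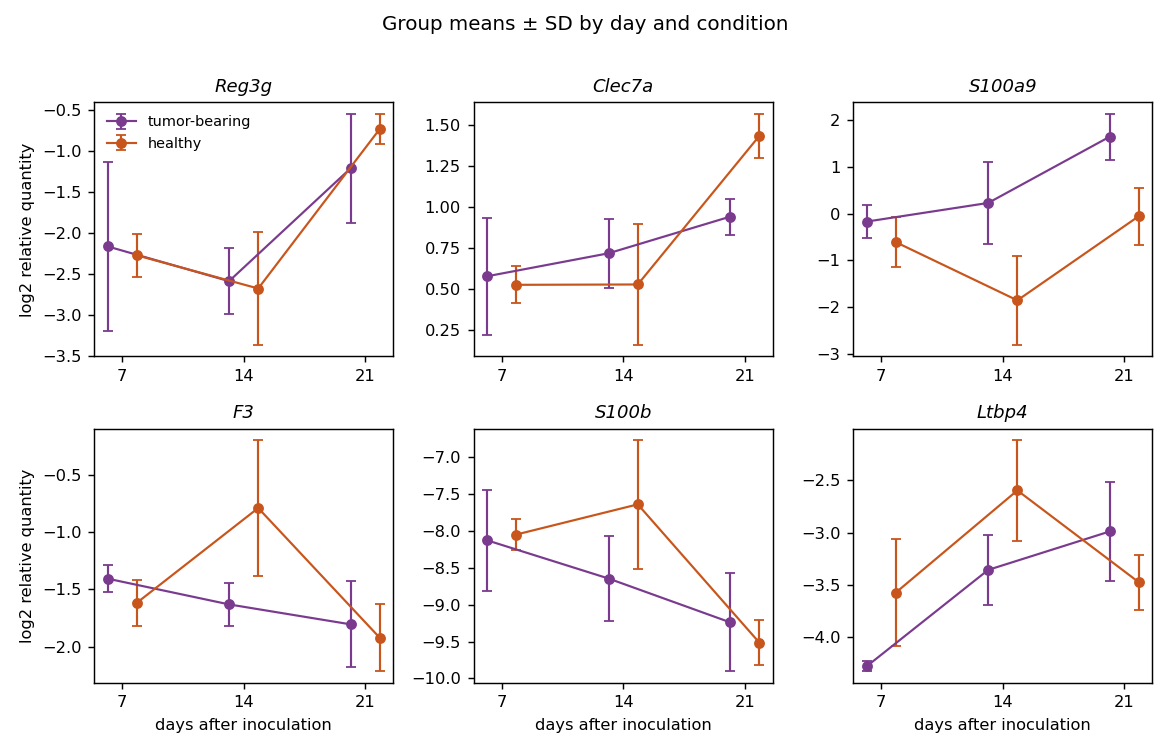
Group means with SD of log2 relative quantity at 7, 14 and 21 days after inoculation, tumor-bearing mice (purple) drawn left of healthy mice (orange). In healthy mice Reg3g and Clec7a are highest at day 21, S100a9 is lowest at day 14, and F3 and Ltbp4 are highest at day 14.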

How the data were processed

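RNA of each scaffold was reverse transcribed and run as quantitative PCR on the TaqMan OpenArray Mouse Inflammation Panel, per the labels' protocols. The authors deposited 1 column per sample of 2 kinds: raw Cq, and a linear ratio, 2 to the power of minus delta Cq, per the file headers. The software that called Cq is not given in the sources used here. The deposited ratio was matched from the values to the mean Cq of 5 reference genes, Gapdh among them (largest deviation 2.96e-05 cycles), out of 16 assays marked as references. The authors' deposited fold table was not used, since it holds no comparison between days.

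The log2 of the ratio was tested with limma 3.58.1 (R 4.3.3, statmod 1.5.0), with 6 group means over all 28 samples, the panel as a random block, and Benjamini-Hochberg adjustment over 578 assays (519 genes), called at an adjusted p under 0.05. An assay needed a value in 50% of the samples of at least 1 group and 2 values in each group compared. Of 648 assays, 618 matched 1 RefSeq gene. Missing reactions, 13.0% of those in the 11 samples, were left out. Some items are not reported here. Exact permutation tests used scipy 1.17.1 (Python 3.11.15, pandas 2.3.3). The test was checked on simulated data.

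Named were all assays past the threshold, up to 12 per direction with the smallest p among those measured in all 11 samples, and the 3 members of each list with the smallest p. Other members given by value were chosen after their values were seen. The members and lists were chosen with earlier results of these data known. Each sample came from 1 mouse, so p-values measure the spread between mice, panels included. Alternatives changed the block, samples, scaling, missing values, filters and variance model.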

Additional observations from a re-analysis of the deposited data

Results flagged for a closer look

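Within the groups of 4 or more samples, 16 of 111 sets of values had 1 sample that lay far from the rest by Dixon's gap test, which chance gives in about 1 of 20. Of the 2 days only healthy day 14 had enough samples for this test, so all 16 lie there, and 9 came from replicates 13 (4) and 14 (5). Replicate 13 had a value in 475 assays, the fewest of the 8. In replicate 13 Kit stood at 3.01, the second Alox5 assay at -1.85 and C3ar1 at 0.80. In replicate 14 the first Alox5 assay stood at 2.36, the sixth at -1.65, the second Il1b assay at 3.21, Ccr2 at 0.92 and Hmgb1 at -1.30. Replicate 7 was low in Cxcl3 (-5.19) and high in Irak1 (0.72) and Egfr (-0.87). Replicate 12 was high in Ccl6 (2.51) and low in the second Csf2 assay (-11.54). Replicate 8 was high in Bmp15 (-8.00), and replicate 9 was low in Ghrl (-11.91).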

How the results depend on the processing

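The count of 2 calls was not stable: it was 4 with no panel block, 1 with the panel as a fixed block (Atrn in place of Reg3g and Clec7a), 5 with Cq above 28 as missing, and 5 without day 14 replicates 13 and 14. It was 0 in limma with only the 11 healthy samples (67 at an unadjusted p under 0.05), only the 14 healthy samples (76), panels E and F alone (33), missing reactions set to the largest Cq (62), and assays measured in all 28 samples (47). Leaving out 1 sample gave 0 to 15 calls: 0 without replicates 7, 11, 23, 24 or 25, then 4 without 9, 10 without 10, 15 without 12 and 13 without 13. The calls for the difference between conditions were 0 except for 1, Atrn, with the fixed block. The difference in assays with a value per sample, 25.2, was 39.8 without panel D, 26.3 with Cq above 28 as missing and 13.5 to 29.3 without 1 sample. Leaving out replicates 13 and 14 together was chosen after seeing the data. No paired analysis was possible because the replicate numbers of the days are all different, apart from the fits by panel given above. The cause of these shifts was not tested.

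Of 109 named assays, 73 kept their sign in every alternative that could be fitted. With missing reactions at the largest Cq the sign turned for Ccr2 (3.67), Tnfsf11 (2.88), Jak2 (3.04), Irak1 (1.80), Tlr7 (3.01), F3 (2.67), F2 (2.12), Alox5ap (3.11), Tnfsf9 (4.17), Lepr (1.99), Ghrl (5.56), Egfr (2.87), its second assay (0.0085), Il19 (2.75), Bmp15 (1.14), Fabp4 assay 2 (3.43), Apoa1 assay 2 (6.95), Alox5 assay 5 (2.67), Csf2 assay 2 (-3.69) and Tlr1 (1.5). On panels E and F alone it turned for Cd163 (0.45), Mrc1 (0.62), Icos (-0.28), Fn1 (0.082), Itgal (-0.024), Erbb2 (0.14), Alox5 assay 4 (8.5e-05), Egfr assay 2 (0.21), Il1b assay 2 (-2.01), Irf3 assay 2 (0.11) and Lifr assay 2 (0.076). With the fixed block it turned for Cd163 (0.079), Mrc1 (0.013), Tnfsf11 (0.34), Icos (-0.057), Fabp4 assay 2 (0.016), Egfr assay 2 (0.10), Il1b assay 2 (-0.59) and Irf3 assay 2 (0.035). Without panel D it turned for Tnfsf11 (0.17), Egfr assay 2 (0.041), Il1b assay 2 (-0.39) and Irf3 assay 2 (0.0015). With the housekeeping scaling it turned for Egfr assay 2 (0.054), Irf3 assay 2 (0.045) and Tlr1 (0.0026). With reactions over 4 cycles from their group median as missing it turned for Kit (0.023) and Alox5 (0.10). Without replicates 13 and 14 it turned for Ccr2 (0.17), Kit (0.020), C3ar1 (-0.21), Alox5 (0.013) and its assays 3 (-0.11) and 6 (0.21).

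Leaving out 1 sample turned the sign within these ranges: Alox5 -1.01 to 0.10, its assays 3 (-0.13 to 0.19), 4 (-0.14 to 0.040), 5 (-0.30 to 0.15) and 6 (-0.29 to 0.39), Apoa1 assay 2 -0.75 to 0.40, C3ar1 -0.15 to 0.15, Ccr2 -0.34 to 0.17, Egfr assay 2 -0.13 to 0.12, Icos -0.034 to 0.28, Il1b assay 2 -0.056 to 1.11, Irf3 -1.08 to 0.21, its second assay -0.096 to 0.039, Kit -1.32 to 0.020, Tlr1 -0.15 to 0.0062 and Tnfsf11 -0.32 to 0.024.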
